A study of Mus musculus with 24 samples.

Results

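The kidneys compared here lacked Hmx3 together with Hmx2 and were set against kidneys of control littermates of the same line, to ask which genes depend on these transcription factors in the intercalated cells of the kidney. They were the 12 of the series' 24 libraries whose titles name the Hmx3 and Hmx2 genotype, 6 knockout and 6 control, each from whole mouse kidney at embryonic day 18.5, a late fetal stage. The labels give the strain as Hmx2/Hmx3 and the genotypes as Hmx3; Hmx2 KO and Hmx3; Hmx2 control. They describe neither the alleles nor the exons removed, they give no treatment, and the column names of control replicates 1 to 3 carry the letters WT. Reads had been counted in 2 separate tables that share no library, the first with knockout and control replicates 1 to 3 and the second with replicates 4 to 6, so the effect could be read in each of them. Whether every library is a different embryo is not stated, and p-values therefore measure the spread between these libraries, which may in part be technical.

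Intercalated cells line the collecting duct among the water- and sodium-handling principal cells and move acid or base. Type A cells secrete acid through a proton pump, the V-ATPase, and return bicarbonate to the blood through the exchanger encoded by Slc4a1, while cells of type B or non-A non-B secrete bicarbonate through pendrin, the apical anion exchanger encoded by Slc26a4. Hmx2 and Hmx3 are neighbouring homeobox genes best known from the development of the inner ear and hypothalamus, and Dmrt2 encodes a transcription factor with a DM domain.

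Knockout libraries held 52286824 to 66031622 counted reads and controls 55626702 to 91451356. Levels are given in CPM, the reads of a gene relative to the scaled total of its library, and 3 reads, taken as the floor of detection, correspond to 0.0328 to 0.0574 CPM. Floors cover counting error only. Mitochondrial genes took 0.979% to 1.91% of the reads. Markers of the kidney were present in every library: 8 podocyte genes summed to between 1471 and 1840 CPM in knockouts and between 1522 and 1725 CPM in controls, and 12 proximal tubule genes to between 3328 and 5018 and between 3643 and 4318 CPM. Of genes of neighbouring tissue, 9 adrenal genes summed to at most 7.1 CPM in any library, 6 skeletal muscle genes to at most 7.93 CPM and 5 adipose genes to at most 0.357 CPM, while 6 liver-type genes reached 229 CPM. Y-linked genes were expressed in 2 of 6 knockout libraries (replicates 1 and 4) and in 4 of 6 controls (1, 3, 4 and 6), which is the same 1 against 2 in both tables.

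The targeted genes were read first. Hmx2 (chromosome 7, 131150502 to 131159743, plus strand, mm39) had 171, 208, 116, 90, 130 and 92 reads in control replicates 1 to 6 and 0, 4, 2, 0, 0 and 2 reads in knockout replicates 1 to 6. No knockout library came near a control library. On the CPM scale Hmx2 lay between 1.57 and 2.25 in controls, with a median of 1.98, and between 0 and 0.0605 in knockouts, at or near the floor in all of them. The log2 fold change over both tables was −6.28 ± 0.37 (SE; adjusted p = 1.32e-07 in edgeR's quasi-likelihood test), with 807 reads in controls and 8 in knockouts. Hmx3 (chromosome 7, 131144596 to 131146654, plus strand) had 6, 4, 8, 6, 2 and 8 reads in the controls and 4, 0, 0, 0, 1 and 1 in the knockouts. Those numbers were too low for the filter on low counts, so Hmx3 was not among the tested genes, and knockout replicate 1 lay within the control range. In a fit with no filter its log2 fold change was −2.21 ± 0.96 (SE; edgeR unadjusted p = 0.0241, adjusted p = 0.828). Per kilobase of the counted gene model, the control level was 0.5997 for Hmx2 and 0.0598 for Hmx3 (CPM per kilobase). The reads thus check the Hmx2 part of the label well and the Hmx3 part weakly.

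Few genes were called. Of 19050 genes tested, 4 passed a Benjamini-Hochberg adjusted p of 0.05 (written here as called), which is 0.021% of those tested. 3 were lower in the knockout (0.0157%), namely Hmx2, Tldc2 and Slc26a4, and 1 was higher (0.00525%), Bub3. The next smallest adjusted p was 0.185, for Dmrt2. At an unadjusted p under 0.05 there were 940 genes (4.93%), 419 higher (2.2%) and 521 lower (2.73%). The median absolute log2 fold change over all tested genes was 0.0531, and 95% of the genes lay within 0.376 of 0. The 6 knockout libraries lay wholly apart from the 6 controls for 15 genes (0.0787%), 3 of them higher (0.0157%) and 12 lower (0.063%), with the 3 called lower genes among the 12. Within each table taken by itself, knockouts and controls lay apart in the same direction for 95 genes (0.499%), 33 higher (0.173%) and 62 lower (0.325%), and all 4 called genes were among these. With so few libraries in a group, such separation can also arise without any effect. Its share without an effect was not tested, so separation alone does not mark a gene as changed.

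**Figure D1:**
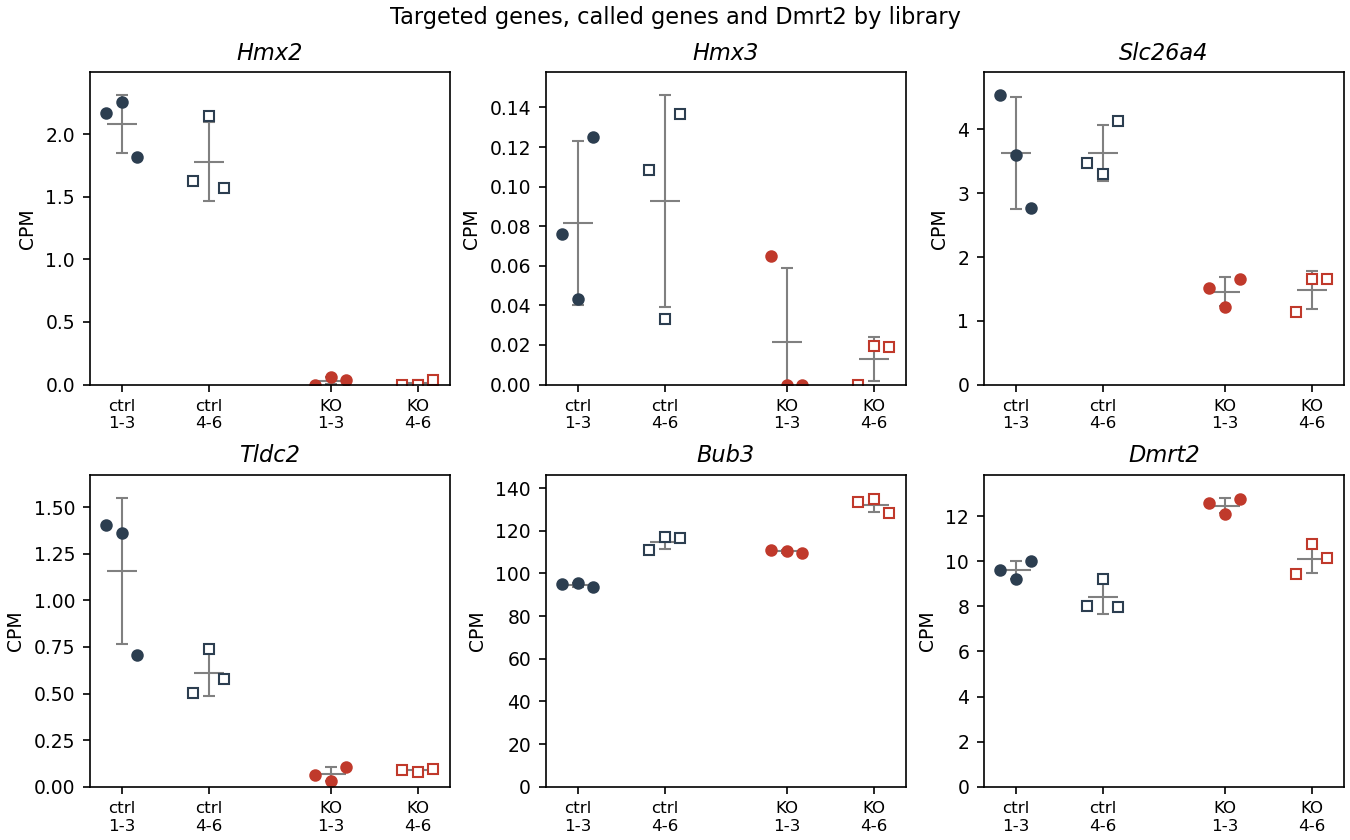
Level of the targeted genes, the called genes and Dmrt2 in each library (CPM, y axis from 0). Filled circles are replicates 1 to 3 of the first table, open squares replicates 4 to 6 of the second, bars the mean ± SD of 3 libraries. Hmx2, Slc26a4 and Tldc2 lie lower in all 6 knockouts, whereas Bub3 and Dmrt2 are apart from controls within each table only.

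Slc26a4 and Tldc2 are the 2 called genes that lie on other chromosomes than the targets. Slc26a4 encodes pendrin, which exchanges chloride for bicarbonate at the apical face of bicarbonate-secreting cells and which is also used in the inner ear and thyroid. Tldc2 encodes a protein with a TLDc domain, a fold shared by proteins several of which bind the V-ATPase. The deposited tables place Slc26a4 on chromosome 12 (31569826 to 31609968, minus strand, mm39) and Tldc2 on chromosome 2 (156928975 to 156938402, plus strand). Their promoters are shown because they are the genes that fell away from the targeted locus. The sequences are from RefSeq's annotation of build GRCm38.p6, 250 bases before to 50 bases after the annotated start, and these coordinates are not those of the deposited tables.

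Tldc2, chr2:157086760-157087059, plus strand: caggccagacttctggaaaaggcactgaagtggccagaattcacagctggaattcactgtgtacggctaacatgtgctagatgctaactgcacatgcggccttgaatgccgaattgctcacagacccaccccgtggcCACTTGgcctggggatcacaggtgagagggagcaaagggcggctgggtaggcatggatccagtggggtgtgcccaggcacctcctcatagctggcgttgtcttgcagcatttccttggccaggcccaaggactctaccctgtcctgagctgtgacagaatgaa
Slc26a4, chr12:31559935-31560234, minus strand: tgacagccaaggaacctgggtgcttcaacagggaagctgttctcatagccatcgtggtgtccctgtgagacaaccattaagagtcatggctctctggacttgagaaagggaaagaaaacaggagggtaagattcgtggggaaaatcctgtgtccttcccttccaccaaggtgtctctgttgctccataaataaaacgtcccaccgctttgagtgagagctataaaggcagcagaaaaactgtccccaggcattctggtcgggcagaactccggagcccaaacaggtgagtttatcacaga

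Capitals mark the only match to 3 short motifs searched on both strands: CAATTAA, a homeodomain core of the Hmx class, CAAGTG, a core bound by Nkx-type homeodomains, and TGTTTAC, a forkhead core. No motif contains another, and the class named for a motif need not be the only one that binds it. The name given to CAAGTG here therefore does not set it apart from sites of Hmx proteins. In Tldc2 the reverse complement of CAAGTG begins at position −113 from the start, and Slc26a4 has no match in this window. The opening bases of a GENCODE transcript of Slc26a4 were found in its window, whereas those of no GENCODE transcript of Tldc2 were, so the Tldc2 start shown is RefSeq's alone. Over 32851 promoters of the same length, 2.58% held CAATTAA, 13.6% CAAGTG and 3.65% TGTTTAC. A match of this length is a description of the letters, and the study's data hold no binding measurement.

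Slc26a4 had 358, 332, 177, 193, 200 and 242 reads in control replicates 1 to 6 and 93, 80, 94, 62, 86 and 86 reads in knockout replicates 1 to 6. The highest knockout library, at 1.66 CPM, lay below the lowest control, at 2.77 CPM, and the medians were 1.58 and 3.54 CPM. The mean fell from 3.635 ± 0.622 to 1.47 ± 0.237 CPM (SD, 6 libraries each), a log2 fold change of −1.31 ± 0.14 (SE; edgeR adjusted p = 0.000485) with a 95% interval of −1.61 to −1.005. The size was the same in both tables, −1.31 in the first and −1.30 in the second. The mean level fell by 59.6%. In whole kidney, fewer cells of a type and less RNA per cell cannot be told apart.

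Tldc2 had 111, 126, 45, 28, 45 and 34 reads in the controls and 4, 2, 6, 5, 4 and 5 reads in the knockouts. Every knockout library lay between 0.0303 and 0.106 CPM, close to the floor, and every control between 0.505 and 1.41 CPM. The log2 fold change was −3.47 ± 0.34 (SE; edgeR adjusted p = 0.00014), or a mean of 0.0776 ± 0.0273 against 0.884 ± 0.398 CPM. The controls themselves differed between the tables, at 1.16 ± 0.393 CPM in the first and 0.609 ± 0.121 CPM in the second, and so did the fold, at −4.10 and −2.76 (log2). The difference between these folds did not pass (unadjusted p = 0.0634 for the interaction, adjusted p = 1). With 26 reads in all over the 6 knockouts, the size of the fold is less certain than its direction. Per kilobase, the control level of Tldc2 (1.38 CPM per kilobase) was close to that of Slc26a4 (1.17).

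The other genes of these 2 families did not pass, and of all tested genes only 0.021% were called. The 2 families were chosen with the fall of Slc26a4 and Tldc2 known, so their counts are no independent evidence. Of 5 TLDc genes tested 1 was called, Tldc2, and Oxr1, Ncoa7, Tbc1d24 and Meak7 had log2 fold changes between −0.01 and 0.07 at levels of 22.4 to 78.6 CPM. Of 9 Slc26 anion transporter genes tested 1 was called, Slc26a4. The log2 fold change was 0.07 for Slc26a7, a basolateral exchanger of type A cells, 0.05 for Slc26a6, and 0.17 for Slc26a1, a sulfate transporter of the proximal tubule. The widest interval among these genes was that of Slc26a9, at 1.07 against 0.728 CPM (log2 fold change 0.56, 95% interval −0.08 to 1.19).

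Bub3, a gene of the mitotic spindle checkpoint, starts 2.2 kb past the end of Hmx2 (chromosome 7, 131161951 to 131173624, plus strand). In the first table it lay at 95.2, 95.3 and 93.6 CPM in controls and at 111, 110.3 and 109.7 CPM in knockouts. In the second table it lay at 111, 117.1 and 116.5 CPM in controls and at 133, 135 and 128 CPM in knockouts. The groups did not overlap within either table, but the level also differed between the tables, and 3 of 6 knockouts exceeded the highest of all 6 controls. Bub3 rose by a log2 fold change of 0.21 ± 0.03 (SE; edgeR adjusted p = 0.0018), or 15.7%, with 0.23 in the first table and 0.20 in the second. The call needs the table as a term, and without it the adjusted p was 0.9995. Of 12 proliferation genes tested 0 were called, against 0.021% of all tested genes, and 6 had a log2 fold change above 0, against 47%.

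Other genes near the locus were not called. Within 1 Mb of the interval from Hmx3 to Hmx2, 19 of 50 genes were tested, and 2 were called, Hmx2 and Bub3. Of the others, Acadsb, a mitochondrial acyl-CoA dehydrogenase gene 93.9 kb before Hmx3, stood at 81.6 against 76.6 CPM (log2 fold change 0.09 ± 0.03 SE, edgeR unadjusted p = 0.0125). Tacc2, a gene of a centrosome-associated protein, stood at 144 against 136 CPM (0.09 ± 0.04, unadjusted p = 0.0408). The annotated span of the growth factor receptor gene Fgfr2 runs across the interval in the deposited tables, and it stood at 208 CPM in both groups (log2 fold change 0.00). Within 5 Mb, 147 of 302 genes were tested and 2 were called. Of the 147, 12 had an unadjusted p under 0.05, the target Hmx2 and Bub3 among them, against 940 of all 19050 tested genes (4.93%).

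**Figure D2:**
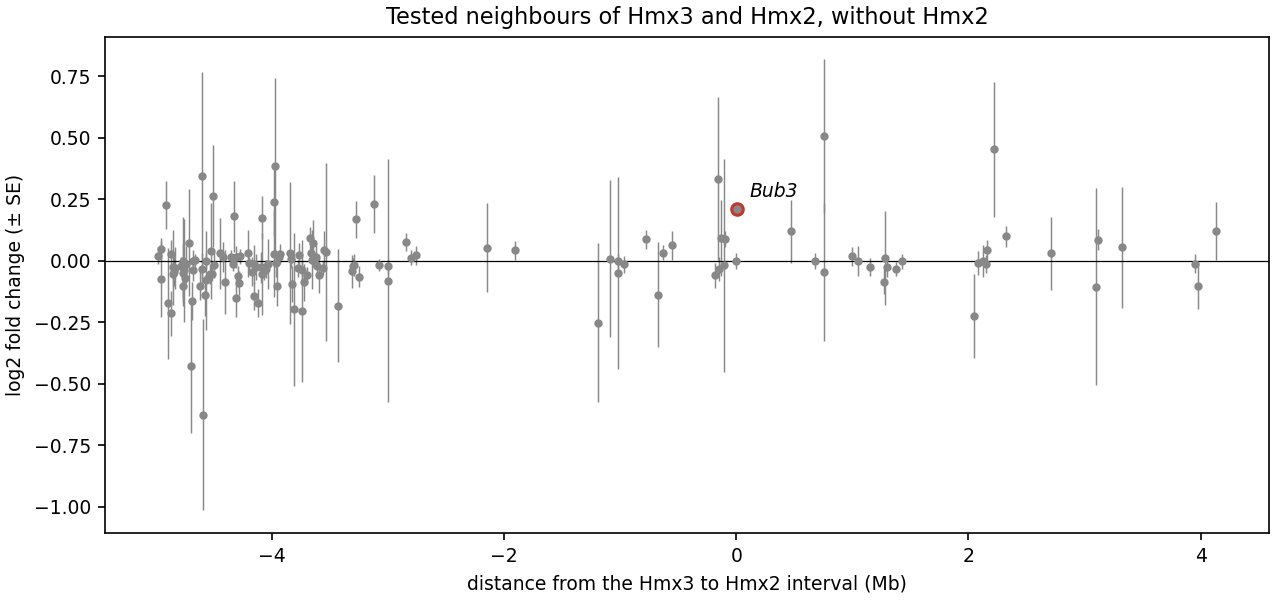
Log2 fold change (knockout over control, ± SE) of tested genes within 5 Mb, against the distance of the gene from the Hmx3 to Hmx2 interval in Mb. Hmx2 itself is left out, and Bub3, the labelled red point, is the called gene at 0.21 beside the interval.

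Dmrt2, a type A gene whose own knockout is part of the study, came next after the called genes and did not pass. It had 9.60, 9.23 and 9.995 CPM in controls of the first table against 12.6, 12.1 and 12.75 CPM in knockouts. In the second table it had 8.01, 9.23 and 7.95 CPM against 9.46, 10.8 and 10.1 CPM. Knockouts lay above controls within each table, as for 33 of all 19050 tested genes (0.173%), and 5 of 6 knockouts lay above the highest of all controls. The means were 11.3 ± 1.37 and 9.004 ± 0.841 CPM, a log2 fold change of 0.32 ± 0.06 (SE; edgeR adjusted p = 0.185) with a 95% interval of 0.20 to 0.45. It was 0.38 in the first table and 0.27 in the second. DESeq2 called Dmrt2 (adjusted p = 0.000699), while edgeR's adjusted p ran from 0.0562 to 0.831 over the 12 fits that each left out a library.

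The intercalated cell genes were then taken by their roles. In the list for bicarbonate-secreting cells (type B or non-A non-B), 9 genes were tested and 3 fell, the already named Hmx2, Tldc2 and Slc26a4, and 6 did not pass. This list was put together with the fall of Slc26a4 and Tldc2 known, so its count is no independent evidence. Slc4a9, the basolateral anion exchanger of type B cells, lay between 43.0 and 51.2 CPM in knockouts and between 40.8 and 50.2 CPM in controls, and its 95% interval of −0.08 to 0.11 (log2) leaves little room for a change. Insrr, an alkali-sensing receptor gene, lay between 13.1 and 20.1 against 15.9 and 19.9 CPM (log2 fold change −0.07, interval −0.30 to 0.16). Spink8 (0.07) and Sh2d4b (−0.08) overlapped in the same way. The groups of these 4 genes overlapped in both tables.

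2 members of the same list were higher in the knockout at an unadjusted p under 0.05 and were not called. Oxgr1, the 2-oxoglutarate receptor of type B cells, lay between 15.2 and 17.9 CPM in knockouts, with a median of 16.8, and between 12.95 and 15.2 CPM in controls, with a median of 13.9. Its groups did not overlap within either table, with the knockouts higher, as for 33 of all 19050 tested genes (0.173%). The log2 fold change of Oxgr1 was 0.24 ± 0.06 (SE; edgeR unadjusted p = 0.00044, adjusted p = 0.764). Slc4a8, a sodium-driven chloride-bicarbonate exchanger, had 27.6 ± 2.89 against 24.5 ± 1.51 CPM (0.17 ± 0.06, unadjusted p = 0.0127). The list's members thus ran from −6.28 to 0.24, with 4 of 9 above 0, where 47% of all tested genes were above 0.

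Of 6 type A genes tested 0 were called, against 0.021% of all tested genes. All 6 had log2 fold changes above 0 in both tables, against 5104 of all 19050 tested genes. This list too was chosen with earlier results known, and it includes Dmrt2. The median of the type A genes was 0.166, against −0.005 over all tested genes. An unadjusted p under 0.05 was found for 3 of 6, against 4.93% of all tested genes. Slc4a1, which encodes the basolateral bicarbonate exchanger of type A cells and of red cells, lay between 20.2 and 25.5 CPM in knockouts and between 16.6 and 20.65 CPM in controls. In the first table its groups were apart, at 23.7 and 17.9 CPM on average, and in the second they overlapped, at 21.3 and 19.4 CPM. The log2 fold change was 0.27 ± 0.06 (SE; edgeR adjusted p = 0.764), 0.42 in the first table and 0.14 in the second. The erythroid genes, which could carry Slc4a1 with them, had a median of −0.003 over 8 tested members, 0.136 in the first table and −0.111 in the second, and their part in the value of Slc4a1 was not tested. Kit, a receptor tyrosine kinase gene, had 59.8 ± 4.43 against 53.4 ± 4.08 CPM (0.17 ± 0.05). The adhesion receptor gene Adgrf5 had a log2 fold change of 0.17 ± 0.08, and Aqp6, a channel of intracellular vesicles, 0.16 ± 0.16 with controls that ranged from 8.79 to 18.7 CPM. For Slc26a7 (0.07 ± 0.09) knockout replicate 1 was at 15.4 CPM, while the other knockouts lay between 9.62 and 11.25 CPM, within the control range of 9.28 to 11.6 CPM.

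Genes shared by intercalated cells did not pass either, with 0 of 14 called, against 0.021% of all tested genes. Of these genes 12 of 14 were above 0 and 5 of 14 had an unadjusted p under 0.05, against 47% and 4.93% of all tested genes. Their median was 0.083, 0.137 in the first table and 0.08 in the second. Foxi1, the transcription factor on which intercalated cells depend, had 37.7 ± 2.07 against 33.15 ± 2.57 CPM (0.19 ± 0.05 SE, edgeR adjusted p = 0.906). Its lowest knockout library, at 34.9 CPM, lay below the highest control, at 37.65 CPM. Tfcp2l1, which encodes a transcription factor of collecting duct cells, had 484.5 ± 75.7 against 425 ± 49.8 CPM (0.18 ± 0.06). The proton pump subunit genes Atp6v0d2 (0.22 ± 0.06) and Atp6v1c2 (0.20 ± 0.07), both used by the pump of intercalated cells, had the largest values of the list. Low values in it included those of the carbonic anhydrase gene Car12 (−0.02), Hepacam2 (0.00) and the ammonia transporter gene Rhbg (0.01). Of the whole V-ATPase, 0 of 21 genes were called, against 0.021% of all tested genes. Above 0 were 15 of 21, against 47% of all tested genes, with a median of 0.025 (0.043 without knockout replicate 3). The values above 0.08 were those of Atp6v0d2, Atp6v1c2, Atp6v1g3 (0.15), Atp6v1b1 (0.12), Atp6v0a4 (0.09) and Atp6v1a (0.09), and the other 15 lay between −0.05 and 0.05.

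**Figure D3:**
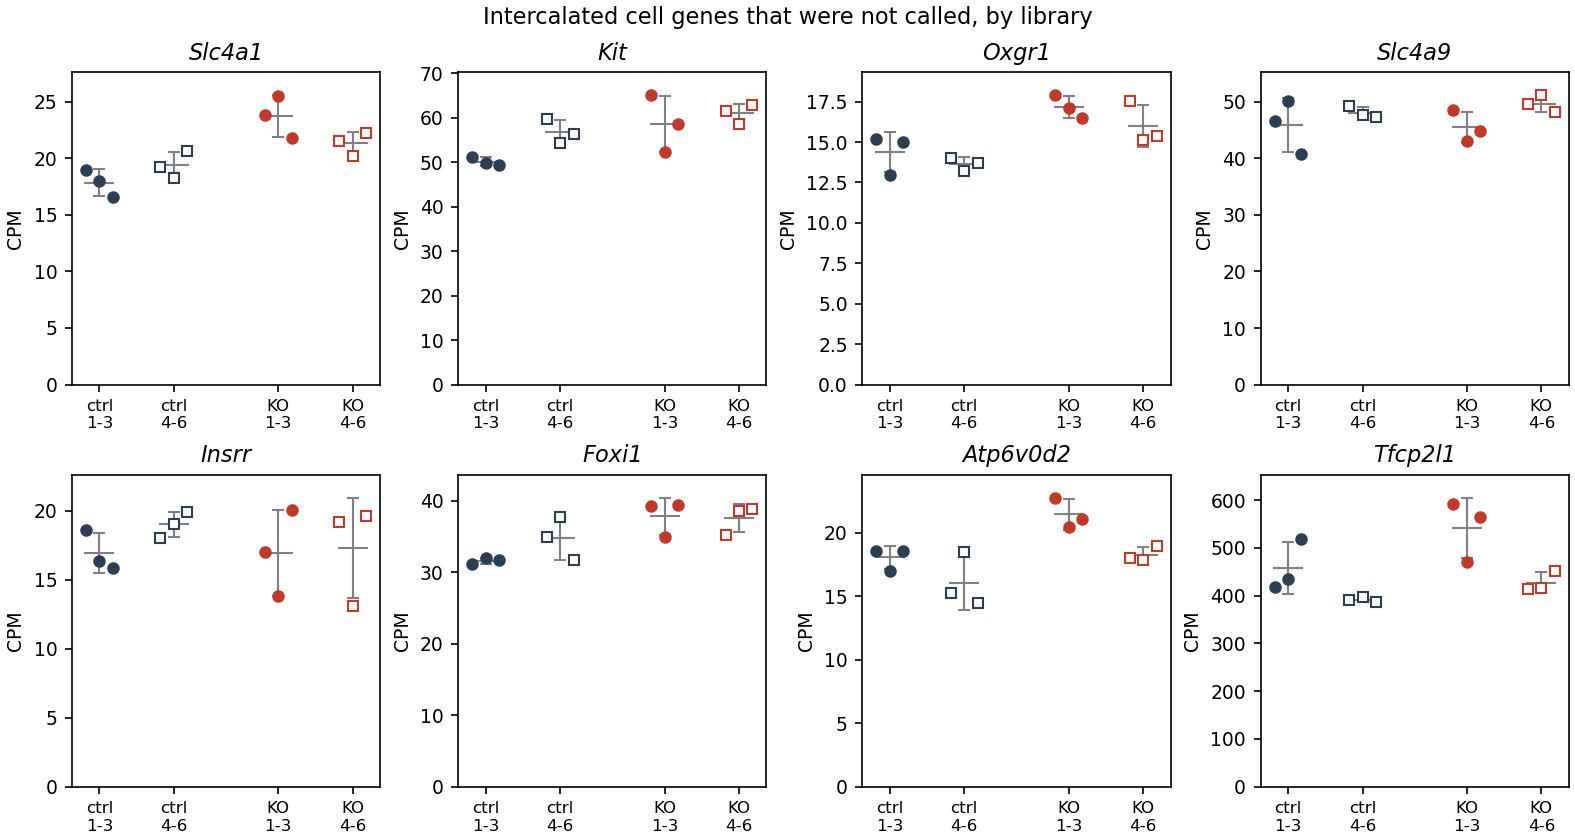
Level (CPM, y axis from 0) of 8 intercalated cell genes that were not called. Filled circles are replicates 1 to 3, open squares replicates 4 to 6, bars the mean ± SD of 3 libraries. Slc4a1, Kit and Foxi1 are apart from controls in the first table and overlap in the second, Oxgr1 is apart in both, and Slc4a9 and Insrr overlap in both.

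Outside the intercalated lists no list member was called in the 25 other lists apart from those already named, and of all tested genes only 0.021% were called. Genes of the distal convoluted and connecting tubule had 8 of 9 values above 0 and a median of 0.167 (0.11 without knockout replicate 2), among them the sodium-calcium exchanger gene Slc8a1 (163 ± 35.3 against 136 ± 15.8 CPM, 0.25 ± 0.10 SE) and the kinase gene Wnk1 (0.20 ± 0.09). Principal cell genes had 9 of 11 above 0 and a median of 0.049, with the water channel gene Aqp3 at 91.3 against 84.1 CPM (0.12 ± 0.05). Endothelial genes had 2 of 8 above 0 and a median of −0.044 (−0.029 without knockout replicate 3, knockout replicate 5 or control replicate 2). The tables differed, with a median of −0.071 and 1 of 8 above 0 in the first, and 0.007 and 5 of 8 in the second. At an unadjusted p under 0.05, 3 of 8 were lower, against 2.73% of all tested genes. Tie1 and Tek, which form an angiopoietin receptor pair, were at −0.08 and −0.09. Immediate early and heat shock genes had 1 of 12 above 0, against 47% of all tested genes, and a median of −0.098. Here too the tables differed, with a median of −0.131 and 1 of 12 above 0 in the first, and −0.014 and 5 of 12 in the second. Fos lay at 2.10 ± 0.269 against 2.79 ± 0.942 CPM (−0.41 ± 0.19). Loop of Henle (median −0.016), podocyte (0.026), nephron progenitor (−0.007), ureteric tip (0.011), stromal (−0.021), macrophage (−0.031), proliferation (0.001) and Notch pathway (−0.018) genes lay near the median of all genes. The proximal tubule list had a median of 0.047, 0.09 in the first table and 0.018 in the second. Without 1 library it ran from 0.023 (control replicate 5) and 0.024 (knockout replicate 4) to 0.081 (control replicate 6), 0.087 (control replicate 4) and 0.111 (knockout replicate 5). Its sodium-glucose transporter gene Slc5a2, which lies on chromosome 7 within 5 Mb of the targets, stood at 36.3 against 32.3 CPM (0.17 ± 0.08). Of genes reported downstream of Hmx2 and Hmx3 in the ear or brain, 4 of 6 were tested and 0 called, Pax2 at −0.07 ± 0.04 and Bmp4 at −0.09 ± 0.05. Among Hmx and Nkx homeobox genes, 4 of 14 were tested, and Nkx6-2 was at 0.655 ± 0.33 against 0.19 ± 0.12 CPM (1.77 ± 0.44 SE, edgeR adjusted p = 0.906; 1.57 in the first table and 2.00 in the second). Nkx6-2 also lies on chromosome 7, beyond the 5 Mb window around the targets, and a part of this linkage in its value was not tested.

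**Figure D4:**
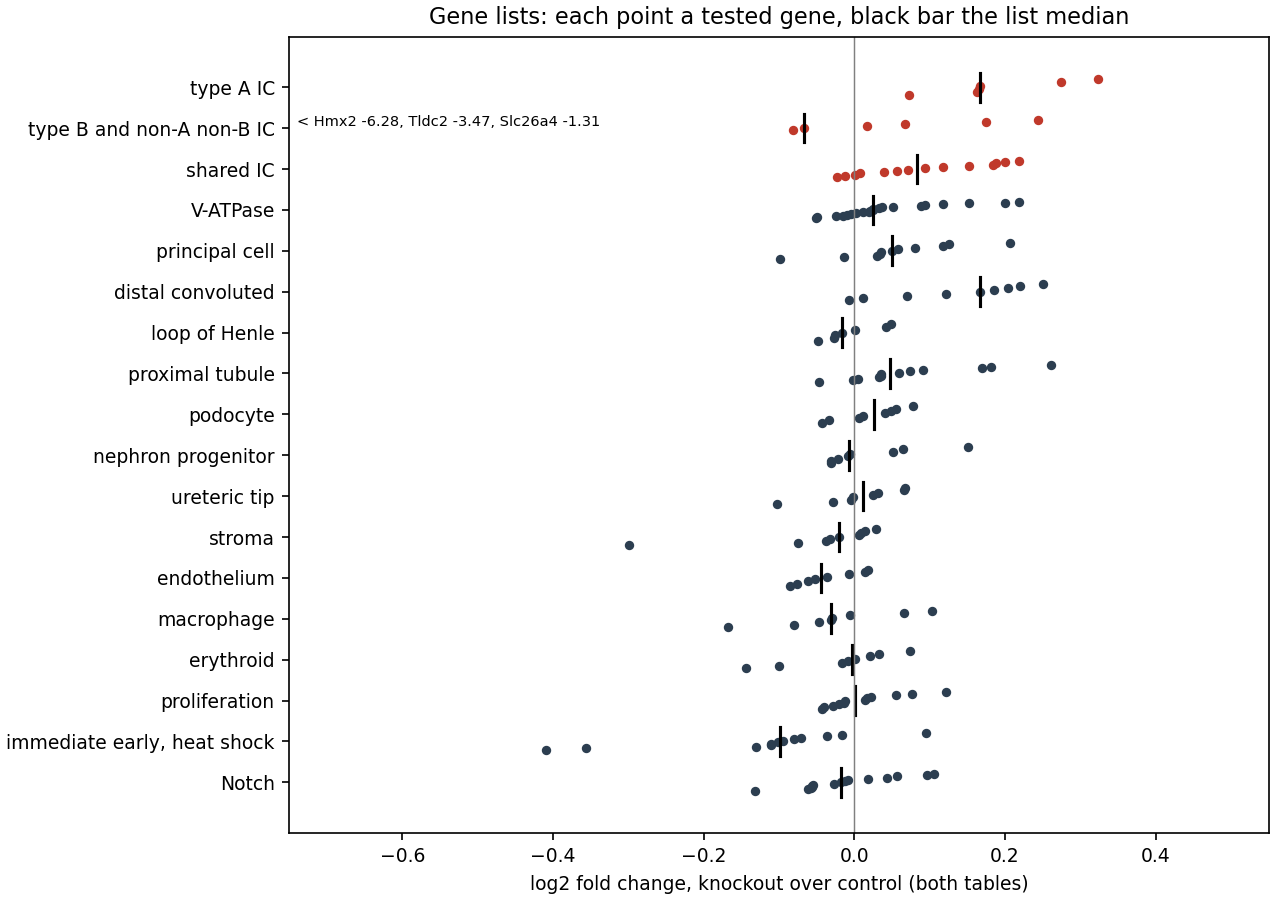
Log2 fold change (knockout over control, both tables) of each tested gene of 18 gene lists, IC standing for intercalated cell, with the list median as a black bar. The 3 genes written at the left of the type B row lie off the axis, and the medians of the type A and distal convoluted rows, 0.166 and 0.167, are the highest shown.

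Among other genes of at least 1 CPM that were not called and had the same direction in both tables, leaving out Dmrt2 and clone-like or sex-linked gene names, the 10 smallest unadjusted p-values on each side were examined. On the higher side stood Slc4a1, Oxgr1, Pde4dip, which encodes a centrosome and Golgi protein (97.4 ± 10.4 against 88.4 ± 9.49 CPM, log2 fold change 0.14), and Wdr72, a gene in which human mutations cause enamel defects and distal renal tubular acidosis (8.75 ± 2.18 against 7.17 ± 1.51 CPM, 0.28). They were followed by Acss1, a mitochondrial acetyl-CoA synthetase gene (0.16), Tmem52b (0.13), Pappa, a protease gene of the insulin-like growth factor system (0.37), Snx29 (0.14), Megf9 (0.12) and the calcineurin regulator gene Rcan2 (0.17). For Snx29 all 6 knockouts lay above all 6 controls, at 34.5 to 39.1 against 31.8 to 34.3 CPM. On the lower side stood Zfp579 (52.5 ± 4.81 against 58.8 ± 3.41 CPM, −0.17), Pcdhb7, a clustered protocadherin gene (−0.42), the kinase gene Nek3 (−0.39), Rasa4, which encodes a Ras GTPase-activating protein (−0.21), Qtrt1, an enzyme gene of tRNA queuosine (−0.16), and Nlgn2, a neuroligin gene (−0.12). Dus3l (−0.11), Zbtb8b (−0.26), Pank4 (−0.13) and Serpina10 (−0.26) completed it. Their adjusted p-values ran from 0.764 to 0.906. Reads of near-identical copies were not counted, so the value of Pcdhb7 within its gene cluster is uncertain.

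How far the 2 tables agree could be read from fits of each alone, since they share no library. The first table alone called 2 of 19615 genes (0.0102%), Hmx2 and the pseudogene Tgif2-ps2, which did not pass the filter over both tables. The second called 2 of 18943 (0.0106%), Hmx2 and Slc26a4. Tldc2 had adjusted p-values of 0.0694 and 0.0708 in the first and second table, Slc26a4 0.533 and 0.0363, and Bub3 0.82 and 0.395. Of 18668 genes tested in both, 31 (0.166%) had an unadjusted p under 0.05 with the same direction in each, 15 higher and 16 lower. These included the 4 called genes, Dmrt2, Oxgr1, Kit and Wdr72, and also Klhl3, which encodes the adaptor that targets WNK kinases for degradation (46.1 ± 4.75 against 40.5 ± 4.27 CPM, 0.19). A test of the difference between the tables, the interaction term, called 0 of 19050 genes (0%) in edgeR, while 404 had an unadjusted p under 0.05. DESeq2 called 1, the predicted gene Gm13835.

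Over all genes the agreement was slight. The log2 fold changes had the same sign in both tables for 10520 of 18668 genes, 56.4%, with Pearson's r of 0.09 and Spearman's rho of 0.114 across genes, which are not independent of each other. Among 10888 genes with a mean of at least 10 CPM the share was 60.1% and r 0.297. Of 497 genes with an unadjusted p under 0.05 in the first table, 340 (68.4%) had the same sign in the second, and their median absolute log2 fold change went from 0.309 to 0.0815. Of 650 such genes in the second table, 460 (70.8%) had the same sign in the first, with a median absolute value of 0.181 in the second and 0.107 in the first. The share of all genes was 56.4% without genes of chromosomes X and Y and 56.1% with the Y-linked level as a covariate.

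**Figure D5:**
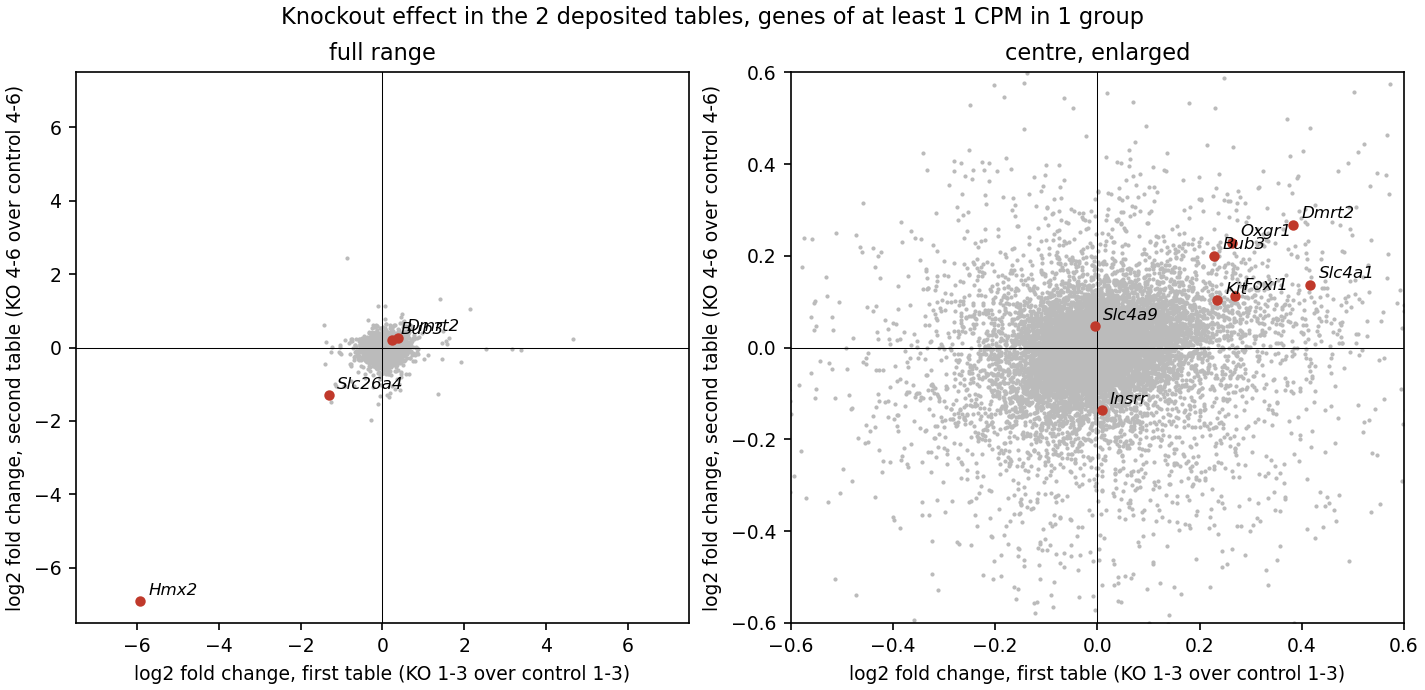
Log2 fold change of each gene in the first table (x axis) against the second (y axis), for genes of at least 1 CPM in 1 group, over the full range at left and enlarged at right. Hmx2 and Slc26a4 lie far out on the diagonal, Dmrt2, Oxgr1 and Bub3 at its near upper end, and most genes form a cloud around 0. Tldc2, below 1 CPM on average, is not drawn.

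The direction of small differences moved with gene length and GC content. Over 10711 genes of at least 10 CPM, the log2 fold change had a Spearman's rho of 0.434 with transcript length and −0.257 with GC content, and the same signs held in each table (length 0.412 and 0.279, GC −0.138 and −0.312). The 419 genes that were higher at an unadjusted p under 0.05 had a median length of 5908 nt and a median GC content of 46.8%, against 2697 nt and 54% for the 521 lower ones. With offsets for both properties, a choice made after seeing the data, the same-sign share was 53.2% over all genes, and 55.3% with an r of 0.224 among the 10888 genes of at least 10 CPM. The 4 calls remained, with log2 fold changes of −6.25 for Hmx2, −3.43 for Tldc2, −1.29 for Slc26a4 and 0.21 for Bub3. The type A median was 0.172 with 6 of 6 above 0, and that of shared intercalated genes 0.093 with 13 of 14 above 0, while the distal convoluted median went from 0.167 to 0.084 and the principal cell median from 0.049 to 0.082.

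Slc26a4 and Tldc2 also differed in their response from the other 2 knockouts of the series. Those are 3 Dmrt2 knockout and 3 libraries labelled triple knockout (Dmrt2; Hmx3; Hmx2 KO), each with 3 controls of its own. In the latter libraries Dmrt2 was higher than in their controls (18.4 ± 0.746 against 11.45 ± 0.727 CPM). In the Dmrt2 knockouts it was lower (1.99 ± 0.371 against 13.67 ± 1.385 CPM). The reads thus do not check the Dmrt2 part of the triple label. The alleles are not described, so a raised RNA level does not by itself contradict that label. In a joint fit of 24 libraries, in which no effect shares controls with another, the Hmx3 Hmx2 effect on Slc26a4 was 3.15 below the Dmrt2 effect on the log2 scale (difference −3.15 ± 0.23 SE, edgeR adjusted p = 1.65e-09), Slc26a4 being at 1.48 ± 0.243 CPM in Hmx3 Hmx2 knockouts and at 16.2 ± 1.28 CPM in Dmrt2 knockouts. For Tldc2 the difference was −6.24 ± 0.38 (adjusted p = 3.12e-11), at 0.078 ± 0.0276 against 9.53 ± 0.469 CPM. Of 22101 genes, 34 (0.154%) differed between these 2 effects and 214 (0.968%) between the Hmx3 Hmx2 and the triple effect. Against the libraries labelled triple knockout the differences were −2.08 ± 0.23 for Slc26a4 and −5.98 ± 0.39 for Tldc2. Both genes were lower than controls in Hmx3 Hmx2 knockouts and higher than controls in the 2 other lines. The Hmx2 effect did not differ at the threshold from that of the libraries labelled triple knockout, which target the same gene (adjusted p = 0.347). The Bub3 effect was 0.19 ± 0.06 above the Dmrt2 effect (adjusted p = 0.332) and 0.09 ± 0.06 above the triple effect (adjusted p = 0.556), neither of which passed. In the libraries labelled triple knockout, Bub3 stood at 104 ± 5.31 against 95.2 ± 7.36 CPM.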

How the data were processed

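Whole-kidney RNA was measured in 12 libraries by bulk RNA sequencing after poly(A) selection (150 bp reads, per the labels). The authors deposited raw counts of reads per gene, 54393 genes in each table, without normalization. The tools named in the submitters' processing notes are fastp 0.20.1, STAR 2.7.0e and featureCounts 2.0.1, with build mm39. The file headers name featureCounts 2.0.3 and GENCODE vM29, paired mode, no strand option and single reads as the unit. Both reads of a pair therefore count, 88.9% to 94.1% of counts from 1 to 19 were even, and a gene cannot be told apart from an antisense partner. 15 genes had exons on several chromosomes, and 2 columns matching no sample title were not used. Coordinates of genes are those of the deposited tables, because the annotation at hand was of another build (GRCm38) and served for GC content, length and promoters.

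Groups and replicate numbers came from the sample titles. edgeR 4.0.16 in R 4.3.3 was used with TMM scaling, filterByExpr (minimum count 10, total 15), the deposited table as a term and the robust quasi-likelihood F test, adjusted by Benjamini-Hochberg at 0.05 over all tested genes. SE was taken from the fold change and its F value (log2 change over root F), and CPM use TMM-scaled totals. Positive log2 values are higher in the knockout. The interaction of genotype and table, each table alone and a joint fit of 24 libraries were fitted in the same way, and the tests were tried on simulated counts. Alternatives were DESeq2 1.42.0, RLE scaling, other filters, no table term, a replicate block, each library left out, a Y-linked covariate, no genes near the targets, and GC and length offsets, the last chosen after seeing the data, as were a minimum of 10 CPM and the Y-linked covariate for the agreement between tables. No 2 libraries looked like a repeat deposit: within a group and table, each of 12 pairs exceeded counting noise (chi-square per degree of freedom 5.61 to 26.5). Same-numbered libraries do not count as pairs, since not all correlations of their deviations exceeded 0.1.

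The libraries, gene lists and tests were chosen with earlier results of these data known. Genes named are Dmrt2, Hmx2, Hmx3, the called genes, the next 10 on each side of at least 1 CPM with the same direction in both tables and no clone-like or sex-linked symbol, neighbours of the locus, members of the type A, type B, shared intercalated, TLDc and Slc26 lists, and the 2 smallest p of other lists. Klhl3, Atp6v1a, Fgfr2 and genes called only in an alternative were chosen after their values were seen. The value of 1 member of the shared intercalated list is not reported here.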

Additional observations from a re-analysis of the deposited data

Results flagged for a closer look

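8 values stood out by fixed rules. In 52 groups of 6 libraries examined, 2 had an extreme library by Dixon's criterion (0.625 for 6 values), where chance gives about 1 group in 20. Hmx3 in knockout replicate 1 stood at 0.0649 CPM (4 reads), with 0.0192 CPM the next highest knockout, and all of these values are near the floor. Pappa in knockout replicate 1 stood at 27.6 CPM, with 22.1 CPM the next highest knockout.

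The effect of the Hmx3 Hmx2 knockout differed from that of another knockout in the joint edgeR fit for the following genes. Against the Dmrt2 knockout the log2 differences were −6.24 for Tldc2, −8.09 for Hmx2, −3.15 for Slc26a4 and 3.13 for Dmrt2 itself, the targeted genes Hmx2 and Dmrt2 being part of the design. Against the libraries labelled triple knockout they were −5.98 for Tldc2 and −2.08 for Slc26a4. All 6 kept their direction and their side of the threshold in the 14 alternatives of the joint fit that were run, with ranges of −6.38 to −5.97, −8.68 to −7.79, −3.22 to −3.06, 3.11 to 3.16, −6.12 to −5.72 and −2.15 to −1.99.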

How the results depend on the processing

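The same 4 genes were called with RLE scaling, with no filter, with the Y-linked covariate, in the joint fit, with GC and length offsets and in each of the 12 fits without 1 library (range of calls 4 to 4). Over these 12 fits the log2 fold change of Slc26a4 ran from −1.38 to −1.22, of Tldc2 from −3.60 to −3.22 and of Bub3 from 0.20 to 0.22. The count was 2 with a mean of at least 1 CPM, where Hmx2 and Tldc2 are filtered out (1 lower), 2 in the first table alone (1 lower), 2 in the second alone (0 higher) and 2 without genes within 5 Mb of the targets, which removes Hmx2 and Bub3 (0 higher). DESeq2 called 5, of which 2 higher (Bub3 and Dmrt2). Without the table term 3 were called and 0 higher. Each table alone has 6 libraries, and the cause of the other shifts was not tested.

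With the replicate number as a block 5 genes were called, 2 of them higher (Bub3 and Ulbp1, chosen after its values were seen). The correlations of same-numbered libraries, which would show a pairing, were 0.074, 0.216, 0.023, 0.132, 0.14 and −0.008, and 4 of 6 knockout libraries correlated best with the control of their own number. The block changed no other call.

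The number of genes whose effect differed between the tables was 0 in edgeR, 1 with DESeq2, 3 with no filter, and 0 to 1 over the fits without 1 library (1 without knockout replicate 2). The same-sign share of 56.4% was 58.2% at a mean of at least 1 CPM, 60.1% at 10 CPM, 53.2% with GC and length offsets, and 52.8% to 57.5% over the fits without 1 library, lowest without knockout replicate 6. Of 1456 alternative values of named genes, 1441 kept their side of the threshold and either kept their direction or moved by less than 1 SE. Values near 0 that changed sign within 1 SE are thus counted among the 1441. Calls were lost for Bub3 without the table term and in each table alone, for Tldc2 in each table alone and for Slc26a4 in the first table alone. Dmrt2 passed with DESeq2.

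Depth limits the low genes: the median half-width of the 95% interval of a log2 fold change was 0.627 under 1 CPM, 0.263 from 1 to 10 CPM, 0.099 from 10 to 100 CPM and 0.073 above. These are medians, and single genes have narrower or wider intervals.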

Other observations

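Some values fell outside the lists. Of the 15 genes (0.0787% of all tested) whose 6 knockout and 6 control libraries lay wholly apart, chosen here after their values were seen, 3 were higher in the knockout and 12 lower. Besides the genes already named they include Gabbr1, a GABA receptor subunit gene, at 56.1 against 62.5 CPM (log2 fold change −0.15), Pacsin3, a gene of membrane remodelling, at 31.6 against 33.7 CPM (−0.09), and the ubiquitin ligase gene Rnf31 at 45.3 against 47.9 CPM (−0.08). Below 1 CPM, Gp2, which encodes a glycoprotein related to uromodulin, stood at 0.828 against 0.561 CPM (0.56), and the alcohol dehydrogenase gene Adh6b at 0.262 against 0.509 CPM (−0.96). 0 of these 5 passed the adjusted threshold in edgeR, with adjusted p-values of 0.906 to 0.944.

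Each table holds 3 libraries of each group, and its level term was called for 6581 of 19050 genes (34.5%), against 4 for the knockout. 51 genes had an absolute log2 fold change above 1 between knockout and control, of which 15 had at least 1 CPM in 1 group and 3 were called. The 51 and the 15 include the Y-linked genes Ddx3y (−1.10) and Eif2s3y (−1.09). Y-linked genes were expressed in fewer knockout than control libraries.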
